A study of Mus musculus with 16 samples.

Results

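Liver RNA was compared between hypothalamic Esr1 mutant females and their controls on chow. Both genotypes carried Esr1 fl/fl, a floxed form of the gene for oestrogen receptor alpha (ERα), on a mixed CD-1 and 129P2 background. Mutants carried in addition a Cre recombinase under Nkx2-1, a driver active in the developing medial basal hypothalamus and, as background, also in thyroid and lung. All mice were females aged 27 weeks kept on standard breeder chow. The comparison took 8 of the 16 liver libraries of the series, 4 mutants (Mutant_Chow) and 4 controls (Control_Chow), 1 mouse per library. It covered 12704 of 15544 deposited genes. A gene was tested where its value reached 1 in 4 libraries or more out of the 16. The other 8 libraries, from mice on high-fat diet (HFD) for 17 weeks, entered only the shared estimate of spread and the comparisons that name HFD.

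Liver is a hormone target as well as a secretory organ. Hepatocytes inactivate oestrogens by sulfation and glucuronidation, and the pulse pattern of pituitary growth hormone sets which steroid-metabolising cytochromes P450 are expressed in female and in male liver. Under cytokines such as interleukin-6, hepatocytes release acute-phase proteins, and metallothioneins, which bind zinc and copper, accumulate with them.

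Values are on the TPM scale, in which transcript abundance is set per length and to a fixed total, and appear to have been adjusted by size factors, so a value compares genes per length as well as libraries. Fold changes are log2 of the ratio of mutants to controls after 1 was added to each value. P-values come from limma and were adjusted by Benjamini-Hochberg over all 12704 genes, with a threshold of 0.05. No sequencing depth could be read from these values, and the labels do not say whether mice shared litters or cages.

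Hepatocyte markers were abundant in all 8 livers (albumin, Alb, from 46702 to 77274). Of 11 pancreas, 8 adipose and 7 skeletal muscle markers, only 2 each were among the tested genes, and Adipoq, Acta1 and Prss2 were not; the medians of these pairs were -0.26, -0.48 and -0.04 on the log2 scale. Column totals averaged 933331 ± 19064 in controls and 988996 ± 63646 in mutants (SD, n = 4; exact two-sided permutation p = 0.171). Mutants 1 and 2 stood apart from the other 6 livers. On the first principal component, with 46.0% of the variance among the 8 livers, these 2 scored 32.99 and 60.86 and the other 6 scored between -23.86 and -10.07. Fold changes of named genes that moved by over 1.5 times without these 2 livers are therefore given both ways.

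In the whole comparison 3 genes passed the threshold, 0.0236% of those tested, and all 3 were higher in mutants. Without mutants 1 and 2 the count was 2, of which 1, Rps7, was shared; the other was Gm21286, named here after its values were seen. Below the threshold, 4.23% of tested genes had an unadjusted p under 0.05 with higher values in mutants and 1.85% with lower values. That balance depended on scaling, since 69.6% of such genes were higher in mutants in the deposited scaling and 40.1% after each library was rescaled to an equal total, with a median over all genes of 0.02 and -0.05. Every mutant exceeded every control for 248 genes (1.95%), and every mutant lay below every control for 139 genes (1.09%). With a fold change of at least 2 as well, these counts were 47 (0.37%) and 16 (0.126%). Complete separation of 4 from 4 gives an exact two-sided permutation p of 0.0286, the smallest that this design allows.

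Esr1 was 11, 12.2, 7.59 and 15.9 in the 4 controls and 19.6, 17, 9.98 and 8.02 in the 4 mutants. The groups overlapped, with a log2 fold change of 0.17 ± 0.34 (SE; adjusted p = 0.998, limma), and -0.31 without mutants 1 and 2. Deletion was directed at the brain, so the level of Esr1 in liver does not check the genotype. Fst, the gene for the activin antagonist follistatin, was 5.61, 14.2, 6.02 and 2.4 in controls and 13.2, 7.62, 3.29 and 2.97 in mutants. These values overlapped as well, with a log2 fold change of -0.05 ± 0.49 (adjusted p = 1, limma; -0.76 without mutants 1 and 2).

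The 3 genes past the threshold have little in common by known function. Rps7 encodes a protein of the small ribosomal subunit. Sult1e1 encodes oestrogen sulfotransferase, which blocks oestradiol from binding its receptor by sulfating it. Crybg2 encodes a protein with beta/gamma crystallin domains.

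Rps7 (GRCm38 chromosome 12, 28630854 to 28635953) was 15.5, 19.3, 18.5 and 19.7 in controls and 164, 209.9, 169 and 143 in mutants. The groups were far apart and each was even within itself, and the log2 fold change was 3.15 ± 0.17 (adjusted p = 7.2e-08, limma), or 3.03 without mutants 1 and 2. Over the 17 alternative settings adjusted p of Rps7 was at most 2.89e-05 (limma). Rps7-ps3, a pseudogene of Rps7 on the X chromosome, was 309, 335, 321 and 334 in controls and 187, 246, 176 and 168 in mutants. It was thus lower in every mutant, and the log2 fold change of -0.75 ± 0.14 did not pass the threshold (adjusted p = 0.162, limma). It passed after rescaling to an equal total (adjusted p = 0.0171), with library weights (0.00609) and without mutant 2 (0.0419). The 2 transcripts align over 651 bases with 4 mismatches in GENCODE M21, the Rps7 transcript being 954 bases long and the pseudogene 651. Within the aligned part, only reads over those 4 bases tell the transcripts apart; reads over the rest of Rps7 have no counterpart in the pseudogene. The 4 sites are shown within 25 bases of each transcript, with the differing base in capitals; positions count from 1 at the 5′ end of the Rps7 transcript, and the Rps7 base is given first.
Rps7 at G86A: tctttctaagccGgcgatccgtcag
Rps7-ps3 at G86A: tctttctaagccAgcgatccgtcag
Rps7 at T133G: gcgccaagatcgTgaagcccaatgg
Rps7-ps3 at T133G: gcgccaagatcgGgaagcccaatgg
Rps7 at G155A: tggcgagaagccGgacgagttcgag
Rps7-ps3 at G155A: tggcgagaagccAgacgagttcgag
Rps7 at G230T: ggcgcagctgcgGgaactcaacatc
Rps7-ps3 at G230T: ggcgcagctgcgTgaactcaacatc

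The sum of Rps7 and Rps7-ps3 was 324.2, 354, 339.5 and 354 in controls and 351, 456, 345 and 311 in mutants. The summed groups overlapped (log2 difference 0.08, exact two-sided permutation p = 0.743). Of the 77 cytosolic ribosomal protein genes tested, Rps7 alone passed the threshold. The median log2 fold change of all 77 was 0.05, against 0.02 over all genes and -0.03 for the list after rescaling to an equal total.

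Sult1e1 (chromosome 5, 87575969 to 87591594) was near 0 in controls, at 0.0659, 0.629, 0.878 and 0.635, and was 10.9, 18.8, 3.45 and 6.18 in mutants. The higher values were in mutants 1 and 2, and mutants 3 and 4 still lay above every control. The log2 fold change was 2.62 ± 0.36 (adjusted p = 0.0163, limma), and it was 1.90 without mutants 1 and 2 (adjusted p = 0.119, limma). Sult1e1 was below 1 in all 8 controls on chow or HFD, so it entered the test only through mutants. Crybg2 (chromosome 4, 134060815 to 134092504) was 0.785, 0.493, 0.696 and 1 in controls and 7.24, 7.46, 13 and 2.57 in mutants. Its highest value was in mutant 3, not in the 2 livers that stood apart, and the log2 fold change was 2.15 ± 0.31 (adjusted p = 0.02, limma) and 2.03 without them (adjusted p = 0.4, limma). Both calls were also lost in the fit of the 8 chow libraries alone, where adjusted p was 0.209 and 0.212 (limma). Leaving out control 1, 2 or 4 or mutant 1 also ended the call of Sult1e1 (adjusted p from 0.0618 to 0.112, limma), and leaving out any control or mutant 1 or 2 ended that of Crybg2 (0.0618 to 0.123). The 8 libraries bear 2 runs of near-consecutive title numbers, with controls 1 and 2 and mutant 1 in the earlier; within the earlier and the later run the difference was 3.18 and 2.29 for Sult1e1 and 2.33 and 2.03 for Crybg2 on the log2 scale. With the run as a term in the fit, neither passed (adjusted p = 0.0531 for both, limma), and with a pseudocount of 0.1 Sult1e1 did not (adjusted p = 0.056, limma).

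**Figure D1:**
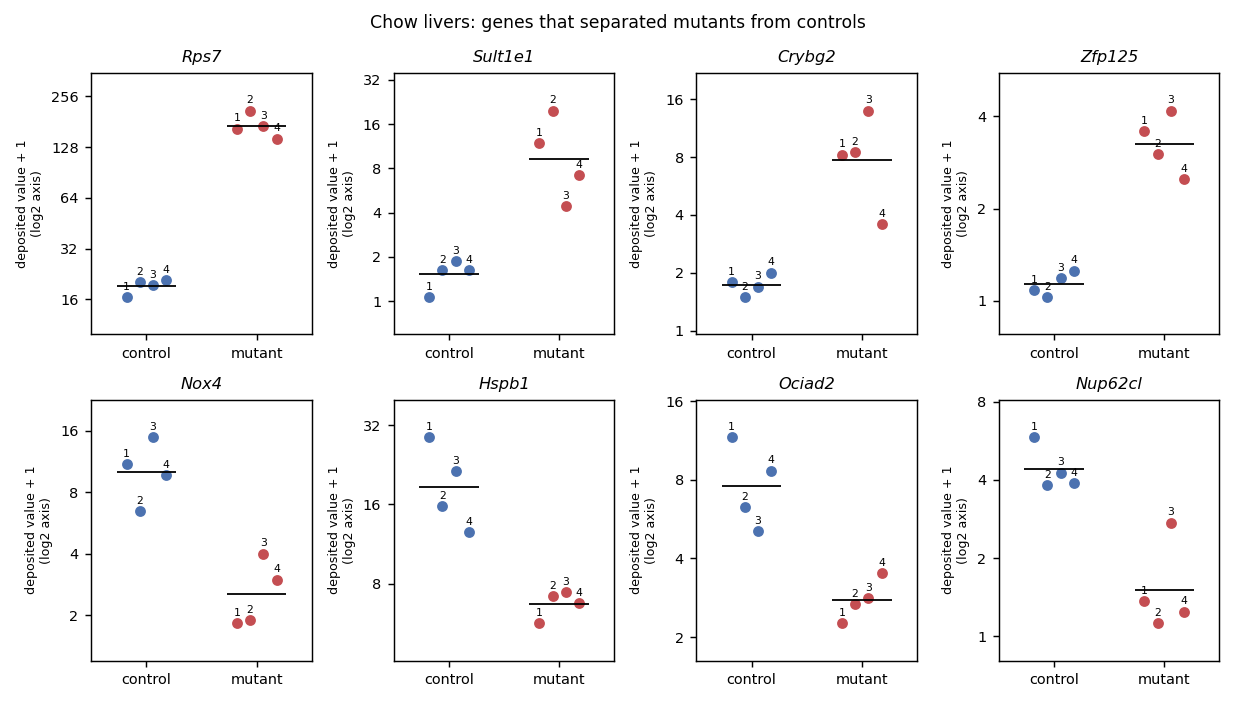
Deposited value plus 1 on a log2 axis in each of the 4 control and 4 mutant livers on chow, numbered by replicate, for 4 genes higher and 4 genes lower in every mutant; lines are group means of the log2 values. Rps7 lies between 15.5 and 19.7 in controls and between 143 and 209.9 in mutants before 1 is added, and no gene shown has overlapping groups.

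Further genes separated the groups without passing the threshold. The largest difference was that of Gm7086 (chromosome 15, 60742858 to 60746535), a transcribed pseudogene, with 0, 2.85, 0.435 and 1.19 in controls and 303, 646, 274 and 178 in mutants. Its log2 fold change was 7.39 ± 1.39 (adjusted p = 0.162, limma), and 6.89 without mutants 1 and 2. Among all controls on chow or HFD, Gm7086 reached 1 only at 2.85 and 1.19, too few to pass the filter without mutants. It passed the threshold in the fit of the 8 chow libraries alone (adjusted p = 0.000501) and with library weights (0.0139). Zfp125, annotated as a transcribed pseudogene of a zinc finger protein, was 0.086, 0.0275, 0.185 and 0.255 in controls and 2.57, 2.02, 3.18 and 1.5 in mutants (log2 fold change 1.52 ± 0.25, adjusted p = 0.0599, limma). It passed in 5 alternative settings, among them the chow libraries alone (adjusted p = 0.0439, limma). Zfp125 was below 1 in all 8 controls on chow or HFD, so it too entered the test only through mutants. Zfp125, Rrm2 and Rps7 all lie on chromosome 12, at 20877084, 24708241 and 28630854. Gadd45g, a stress-induced growth arrest gene, was 4.48, 9.17, 4.37 and 4.82 in controls and 17.2, 35.2, 10.1 and 16.3 in mutants (log2 fold change 1.55, adjusted p = 0.403, limma). Pilrb2, a receptor of the paired immunoglobulin-like type, was 3, 1.87, 3.53 and 2.91 in controls and 10.3, 10.2, 5.9 and 3.54 in mutants (log2 fold change 1.07, adjusted p = 0.403, limma; 0.57 without mutants 1 and 2), and its transcript is 95.8% identical to that of Pilrb1, so the split of reads between them is uncertain.

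The 12 genes of smallest p that were at least 2-fold lower, with no overlap, are described next. Without mutants 1 and 2 all but Ugt1a9 and Cyp2b13 stayed below -1 on the log2 scale. Nox4, which encodes an NADPH oxidase that makes hydrogen peroxide, was 9.97, 5.45, 13.9 and 8.74 in controls and 0.825, 0.899, 3.01 and 1.99 in mutants. All 4 mutants lay below the lowest control, with a log2 fold change of -1.99 ± 0.45 (adjusted p = 0.331, limma) and -1.54 without mutants 1 and 2. Hspb1, a small heat shock protein gene, was 27.9, 14.8, 20.3 and 11.5 in controls and 4.65, 6.18, 6.42 and 5.74 in mutants. The mutants were closer to each other than the controls were, and the log2 fold change was -1.48 ± 0.35 (adjusted p = 0.403, limma) and -1.40 without the same 2 livers. Hspb1 shares 99.8% identity over 441 bases with the pseudogene Hsp25-ps1. Ociad2 was 10.7, 5.3, 4.09 and 7.68 in controls and 1.25, 1.67, 1.82 and 2.51 in mutants (log2 fold change -1.44, adjusted p = 0.548, limma; -1.26 without the 2 livers).

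The remaining lower genes were Nup62cl, a relative of a nuclear pore gene (-1.54), Lamb3, a laminin subunit (-1.89), Ugt1a9, a glucuronosyltransferase (-1.03, or -0.45 without mutants 1 and 2), the pseudogenes Gm46415 (-1.89) and Gm7208 (-1.81, or -1.06 likewise), with log2 fold changes in brackets. The other 4, Cyp2b13, Mup7, Cyp2d9 and Cyp3a11, are of the sex-biased or drug-metabolising kind. Adjusted p ranged from 0.276 to 0.67 over the 12 (limma). Over the 63 genes with no overlap and at least a 2-fold difference, the HFD livers, which share no mouse with this comparison, gave a difference of the same sign for 54 (85.7%). Over all tested genes the share was 54.7%. On HFD the groups also failed to overlap, in the same direction, for 9 of the 63. The share of all tested genes without overlap on HFD was not computed, so this count is only a description.

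The same genes were measured in the livers of other mice, on HFD. There, Rps7 was 20.3, 19.5, 24.8 and 34.3 in controls and 206, 187, 161 and 152 in mutants. The difference of 2.81 on the log2 scale also passed the threshold (adjusted p = 3.86e-07, limma), as did that of Rps7-ps3, -1.11 (adjusted p = 0.0056, limma). Sult1e1 was 0.356, 0.137, 0.85 and 0.0637 in HFD controls and 2.34, 2.09, 1.61 and 3.79 in HFD mutants. The mutants were again all higher, by 1.35 on the log2 scale (adjusted p = 0.524, limma). Crybg2 was 1, 1.65, 1.46 and 0.419 in HFD controls and 2.62, 1.75, 3.06 and 2.61 in HFD mutants (log2 fold change 0.74; adjusted p = 0.565, limma). Gm7086 was 0, 0.434, 0.483 and 0.47 in HFD controls and 0, 133, 836 and 249 in HFD mutants. HFD mutant 1 was listed at 0 and the other 3 were far above all controls. The same HFD mutant lay within or below the control range for Cyp17a1 and A1bg and within it for Nox4, but not for Rps7. No interaction between genotype and diet passed the threshold for any gene (smallest adjusted p = 0.895, limma).

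Genes of the female pattern of liver expression were often higher in mutants. Of 37 female-biased genes tested, 10 were higher in every mutant than in any control, against 1.95% of all tested genes. In every mutant 1 was lower, against 1.09%. By sign, 25 of the 37 had a log2 fold change above 0 and 12 below, where 54.6% of all tested genes lay above 0. Some of the 10 have closely similar transcripts, given below, so they are not fully separate counts. Mutants 3 and 4, which did not stand apart, exceeded every control for 14 of the 37, against 6.91% of all tested genes. None of the 37 passed the threshold, and their median log2 fold change was 0.17, or 0.32 without mutants 1 and 2 and 0.09 after rescaling to an equal total.

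Cyp17a1, a steroid 17-alpha-hydroxylase and lyase, was 4.01, 7.22, 2.42 and 1.63 in controls and 33, 25.2, 20.2 and 28.5 in mutants. The mutants ranged within a narrow span, and the log2 fold change of 2.64 ± 0.77 (adjusted p = 0.623, limma) was 2.51 without mutants 1 and 2. In the fit of the 8 chow libraries alone Cyp17a1 passed the threshold (adjusted p = 0.0439, limma). A1bg, a secreted plasma glycoprotein, was 483, 1368, 186 and 1806 in controls and 6141, 4675, 3271 and 2867 in mutants. Controls differed widely among themselves, and the log2 fold change was 2.56 ± 1.40 (adjusted p = 0.848, limma).

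Of the Cyp3a genes, which hydroxylate steroids and drugs, the 4 female-biased members were all higher in every mutant. Cyp3a41a and Cyp3a41b share 99.7% of their transcript sequence, so their sum is more certain than either value. The sum was 563, 938, 470.0 and 920.0 in controls and 1281, 2962, 1320.2 and 1192 in mutants, a log2 difference of 1.18 (exact two-sided permutation p = 0.0286). Cyp3a44 was 38.5, 54.2, 26.9 and 39.3 in controls and 74.1, 441, 85 and 76 in mutants. Cyp3a16 was 92.2, 102, 143 and 152 in controls and 217, 391, 231.9 and 255 in mutants. Mutant 2 held the highest value of each. The transcripts of Cyp3a44 and Cyp3a16 are 95.0% and 92.2% identical to that of Cyp3a41a, so the split of reads among these genes is uncertain. Cyp3a11, the main Cyp3a enzyme of drug metabolism and not one of the female-biased list, went the other way, with 323.8, 1434, 763 and 581 in controls and 37.5, 189, 96.5 and 310.5 in mutants (log2 fold change -2.47 ± 0.76, adjusted p = 0.67, limma).

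Cyp2c69, a P450 of the Cyp2c cluster, was 60.8, 195, 48.3 and 207 in controls and 355, 315.1, 504 and 334 in mutants (log2 fold change 1.82). Its transcript is 97.7% identical to that of Cyp2c40, so the split of reads between them is uncertain. The organic anion transporter Slc22a26 was 64.8, 86.5, 111 and 123 in controls and 156, 267, 129 and 125 in mutants, with the lowest mutant just above the highest control (log2 fold change 0.78, or 0.44 without mutants 1 and 2). Prlr, the prolactin receptor, was 170.4, 231.6, 189.8 and 212 in controls and 302, 377, 309.7 and 277 in mutants (log2 fold change 0.65 ± 0.34, adjusted p = 0.838, limma). Its relative Ghr, the growth hormone receptor, was 340.7, 293, 328.5 and 312 in controls and 406, 395, 413 and 379 in mutants, also with no overlap (log2 fold change 0.32). The 1 female-biased gene lower in every mutant was Cyp2b13, at 349, 502, 413 and 295 in controls and 14.3, 5.04, 223 and 179.6 in mutants. Values in mutants 1 and 2 were far below those in mutants 3 and 4, and the log2 fold change of -3.12 (adjusted p = 0.599, limma) was -0.93 without them.

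**Figure D2:**
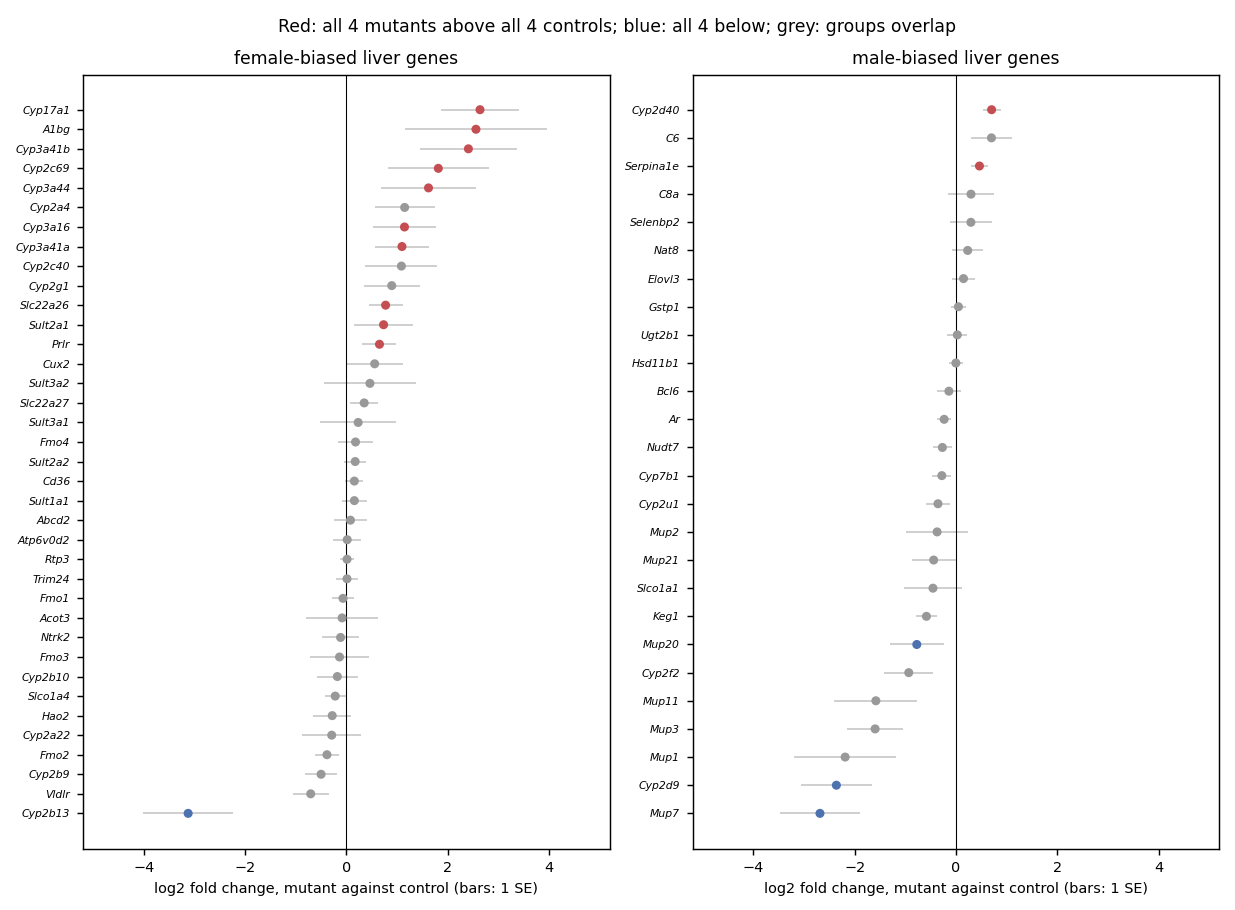
Log2 fold change of mutants against controls on chow for 37 female-biased and 26 male-biased liver genes, ordered by estimate, with bars of 1 standard error; red and blue points are genes whose 4 mutants all lie above or all lie below the 4 controls. Of the female-biased genes 10 are red and 1, Cyp2b13, is blue, and of the male-biased genes 2 are red and 3 are blue.

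Of 26 male-biased genes tested, 3 were lower in every mutant (1.09% of all tested genes) and 2 were higher in every mutant (1.95%). The median log2 fold change was -0.28, but -0.09 without mutants 1 and 2. Cyp2d9, a testosterone 16-alpha-hydroxylase, was 26.8, 32.3, 52.1 and 48.4 in controls and 2.7, 1.79, 17.4 and 17.3 in mutants (log2 fold change -2.36, adjusted p = 0.629, limma; -1.11 without mutants 1 and 2). Mup7, a major urinary protein gene, was 18.3, 19.9, 19.5 and 57.3 in controls and 0.962, 0.132, 13.8 and 7.54 in mutants (log2 fold change -2.69, adjusted p = 0.627, limma; -1.23 without mutants 1 and 2). The lowest values of both were in mutants 1 and 2. Mup7 is 98.8% identical to Mup13, so reads of the Mup genes may be divided wrongly among them. Cyp2d40, also of the male-biased list, was instead higher in every mutant, at 150.0, 129, 101 and 97.1 in controls and 201, 211, 199 and 159 in mutants (log2 fold change 0.70, adjusted p = 0.512, limma).

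Among 25 genes of oestrogen inactivation and sulfotransferases tested, Sult1e1 alone passed the threshold, and it entered the test only through mutants. Of the 25, 3 were higher in every mutant, Sult1e1 among them, against 1.95% of all tested genes. The other 2 were Sult2a3 and Sult2a1, which conjugate hydroxysteroids and bile acids. Sult2a3 was 52.2, 73.9, 82.8 and 24.8 in controls and 111, 94.3, 113 and 153 in mutants. Sult2a1 was 458, 591, 588 and 305 in controls and 906, 673, 681 and 900.2 in mutants. The lowest mutant exceeded the highest control by less than the spread within either group, and the transcripts are 93.4% identical. Sult2a7 ran against them, with 38.1, 85.2, 73.1 and 47.2 in controls and 0.86, 1.94, 47.7 and 10.6 in mutants; mutant 3 lay inside the control range (log2 fold change -2.98, adjusted p = 0.602, limma; -1.31 without mutants 1 and 2). The other 22 tested genes of the list, among them the oestrogen-metabolising Ugt1a1, Cyp1a2 and Hsd17b2, had groups that overlapped. The list's median was 0.09.

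The promoters of Sult1e1, the called gene of oestrogen metabolism, and of A1bg, a leading female-biased gene, are shown as RefSeq gives them on GRCm38.p6, from 250 bases before the start site to 50 after it, each on its own strand. Capitals mark TTCNNNGAA, the site of a STAT dimer such as that of STAT5 downstream of growth hormone; the motif is the same on both strands, and 8.3% of all 32851 promoters of this length hold it.
Sult1e1 (chr5:87591562-87591861, minus strand): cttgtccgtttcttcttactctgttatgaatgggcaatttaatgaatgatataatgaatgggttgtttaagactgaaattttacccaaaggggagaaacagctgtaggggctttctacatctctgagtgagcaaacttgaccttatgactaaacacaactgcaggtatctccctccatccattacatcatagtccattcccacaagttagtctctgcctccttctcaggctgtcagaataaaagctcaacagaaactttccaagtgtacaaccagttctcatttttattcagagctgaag
A1bg (chr15:60921221-60921520, minus strand): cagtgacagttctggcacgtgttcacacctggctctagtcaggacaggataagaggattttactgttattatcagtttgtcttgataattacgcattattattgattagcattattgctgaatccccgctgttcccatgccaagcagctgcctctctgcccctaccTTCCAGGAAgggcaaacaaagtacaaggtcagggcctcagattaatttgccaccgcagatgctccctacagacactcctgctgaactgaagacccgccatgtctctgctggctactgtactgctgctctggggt

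No match lay in the window of Sult1e1, and 1, TTCCAGGAA, lay in that of A1bg. Of the 10 female-biased genes above all controls, 8 had a promoter in the table and 3 of these held the motif (A1bg, Prlr and Slc22a26). A match of letters does not show that a factor binds there.

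RNA of neutrophil markers was abundant in mutants 1 and 2. Summed over the 10 tested markers, values were 12, 15.6, 8.89 and 19.1 in controls and 3125, 6712, 32 and 126 in mutants. In bulk liver, more cells of a type and more RNA per cell cannot be told apart. S100a8 and S100a9, the 2 subunits of calprotectin, are among the most abundant proteins of neutrophils. S100a8 was 1.95, 1.82, 0.726 and 2.05 in controls and 1079, 2693, 8.22 and 34.1 in mutants. S100a9 was 2.03, 2.71, 1.04 and 5.75 in controls and 1339, 2639.9, 12.8 and 49.6 in mutants. All 4 mutants exceeded all controls, but mutants 1 and 2 lay orders of magnitude above them and mutants 3 and 4 far less. The log2 fold changes were 6.09 ± 1.33 and 5.98 ± 1.25 (adjusted p = 0.276 and 0.276, limma), and 2.81 and 2.90 without mutants 1 and 2.

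Of 14 neutrophil markers, 10 were tested, and 6 of these were below 1 in all 8 controls on chow or HFD, so they entered the test only through mutants, and a count over the tested members gives no support for a difference. None passed the threshold; their median log2 fold change was 3.84, and 1.10 without mutants 1 and 2. Groups did not overlap for S100a8, S100a9, Ngp, Ltf, Retnlg and Camp, the last at 0.406, 0.128, 0.104 and 0.144 in controls and 152, 225, 1.23 and 8.45 in mutants. Camp, Ngp and Ltf encode proteins of the secondary granules, which form while neutrophils mature in marrow. Elane and Mpo encode proteases and peroxidase of the primary granules, which form earliest. Elane was 0.182, 0.0864, 0 and 0.484 in controls and 76.1, 131, 0.412 and 2.8 in mutants. Mpo was 0.389, 0.0853, 0.0473 and 0.64 in controls and 80.6, 143, 0.469 and 3.34 in mutants. For both, mutants 1, 2 and 4 were above the controls and mutant 3 was within their range. Csf3r, the receptor for granulocyte colony-stimulating factor, had a log2 fold change of 1.08, or 0.05 without mutants 1 and 2. The markers Ly6g, Cd177, Cxcr2 and Mmp8 were not among the tested genes. Leaving out mutant 3 alone brought 14 genes past the threshold, among them Mpo, Elane, Ngp, Ltf, Camp, Chil3, S100a8 and S100a9. Mutant 3 held the lowest mutant value of each gene so named, so its removal raises their difference and gives no support for it. Leaving out mutant 4 alone brought 5 genes past the threshold.

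Other immune and dividing cells were measured by their own lists. Of 16 Kupffer cell and macrophage markers, all had a log2 fold change above 0, against 54.6% of all tested genes. Their median was 0.67, but none separated the groups and the median without mutants 1 and 2 was 0.06. Lyz2, the lysozyme of myeloid cells, was 23.8, 37.9, 37.8 and 66.1 in controls and 210.0, 425, 44.9 and 36.8 in mutants, with mutants 1 and 2 alone above the controls. Igkc, the constant region of antibody kappa chains, was 33.4, 16.4, 12.1 and 32 in controls and 247, 609, 26.3 and 39.1 in mutants, and the 11 lymphocyte markers tested had a median of 0.35 (0.01 without the 2 livers). Of 18 cell cycle genes tested, 2 were higher in every mutant (1.95% of all tested genes). Of the 18, 2 entered the test only through mutants, being below 1 in all controls. Rrm2, the small subunit of ribonucleotide reductase, was 0.854, 0.754, 1.22 and 1.62 in controls and 4.96, 6.44, 2.46 and 2.69 in mutants (log2 fold change 1.23 ± 0.25, adjusted p = 0.276, limma; 0.78 without mutants 1 and 2). Among all controls on chow or HFD, Rrm2 reached 1 only at 1.22 and 1.62, too few to pass the filter without mutants. Cdk1, the mitotic kinase, was 0.936, 1.61, 0.473 and 2.12 in controls and 6.91, 5.62, 2.77 and 2.38 in mutants. The list's median was 0.61, and -0.01 without mutants 1 and 2.

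Acute-phase proteins followed the same 2 livers. All 26 genes tested had a log2 fold change above 0, against 54.6% of all tested genes, with a median of 1.04. Of the 26, 5 were higher in every mutant (1.95% of all genes), and none passed the threshold. Without mutants 1 and 2 the median was 0.09. Serum amyloid A ranged widely. Saa1 was 58.5, 30.5, 46.4 and 63.2 in controls and 385, 20634, 22.1 and 47.8 in mutants. Mutant 2 was far above all other livers, mutant 4 lay within the control range and mutant 3 below it. Its log2 fold change of 2.65 ± 1.69 (adjusted p = 0.894, limma) turned to -0.54 without mutants 1 and 2, and that of Saa2, 2.59, turned to -0.70. Lcn2, which encodes the iron-siderophore trap lipocalin-2, was 18.2, 34.9, 12.4 and 29.4 in controls and 580.3, 4677, 25.4 and 40.9 in mutants. Haptoglobin, Hp, was 1641, 1040.4, 1427 and 1273 in controls and 3894, 17949, 1299.7 and 1504 in mutants. The log2 fold change was 3.35 for Lcn2 and 1.36 for Hp, but 0.53 and 0.07 without mutants 1 and 2.

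The 5 that separated all mutants were Cp, Apcs, Fgl1, Itih4 and Fga. Ceruloplasmin, Cp, which carries copper in plasma, was 572, 470.1, 551 and 494 in controls and 1154, 3216, 727 and 689.7 in mutants (log2 fold change 1.17, adjusted p = 0.709, limma; 0.44 without mutants 1 and 2). Serum amyloid P, Apcs, was 235, 342.1, 211 and 302 in controls and 669, 3114, 365 and 349 in mutants. Mutants 3 and 4 lay only slightly above the highest control for Apcs and further above it for Cp. The log2 fold change of Apcs, 1.42, was 0.42 without mutants 1 and 2. Of 36 complement and coagulation factors tested, in part acute-phase proteins too, 9 were higher in every mutant (1.95% of all tested genes). None was lower in every mutant (1.09%). Their median log2 fold change was 0.28, or 0.10 without mutants 1 and 2 and 0.20 after rescaling. Cfi, complement factor I, was 418, 355, 433 and 429 in controls and 699, 895, 504 and 459 in mutants. F7, coagulation factor VII, was 109, 118, 109 and 125 in controls and 162, 164, 139 and 135 in mutants. None of the 36 passed the threshold.

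**Figure D3:**
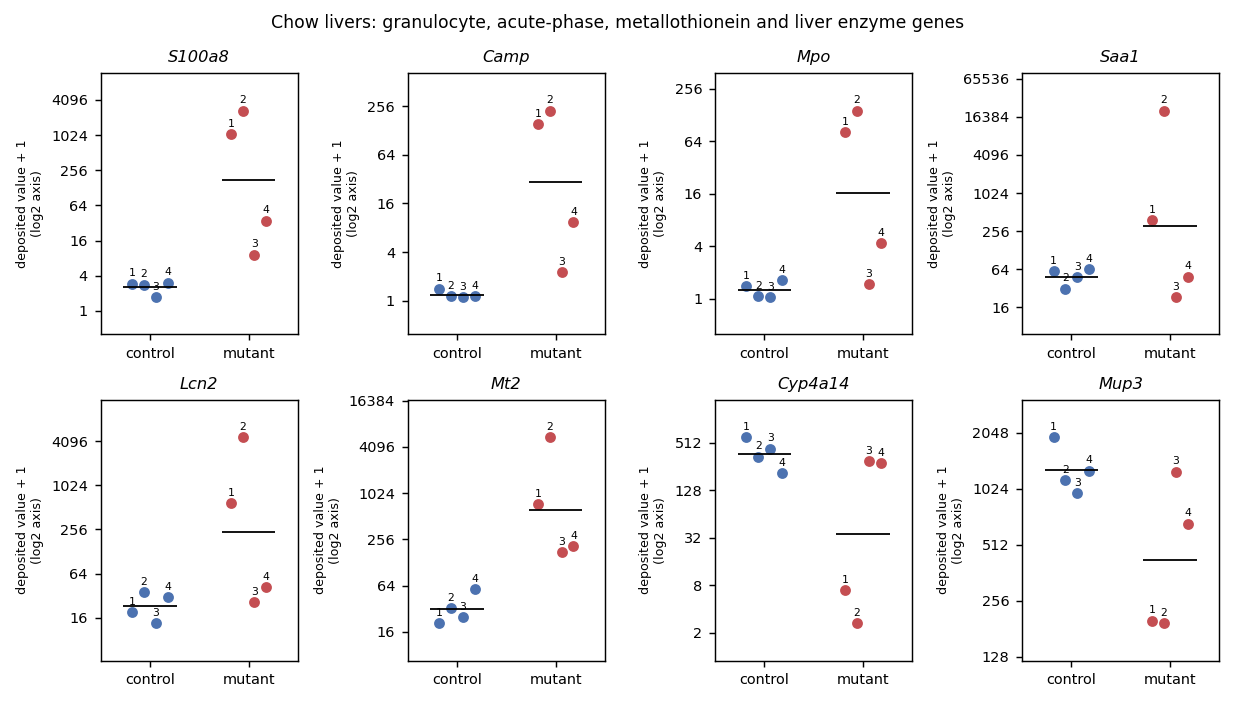
Deposited value plus 1 on a log2 axis in each chow liver, numbered by replicate, for neutrophil genes (S100a8, Camp, Mpo), acute-phase genes (Saa1, Lcn2), a metallothionein (Mt2), a fatty acid hydroxylase (Cyp4a14) and a urinary protein gene (Mup3); lines are group means of the log2 values. In every panel the values of mutants 1 and 2 are the farthest from the controls, and for Cyp4a14 mutants 3 and 4, at 299 and 280.4, lie within the control range.

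The metallothioneins were higher in every mutant, and the 2 livers that stood apart were only the upper end of them. Mt2 was 19.5, 31.7, 23.7 and 56.9 in controls and 734, 5541, 174 and 207 in mutants. Mt1 was 125, 245, 158 and 311 in controls and 1139.5, 8912, 456 and 549 in mutants. For both genes mutants 3 and 4 lay clear of the highest control. The log2 fold change was 4.31 ± 0.94 for Mt2 (adjusted p = 0.276, limma) and 2.67 ± 0.77 for Mt1 (adjusted p = 0.611, limma), and without mutants 1 and 2 it was 2.61 and 1.34. Of 16 genes of metal handling tested, 5 were higher in every mutant (1.95% of all genes). The other 3 were Cp, Slc39a14 and Id1. The zinc importer Slc39a14 was 161, 117, 140.2 and 150.4 in controls and 179.7, 330.1, 185 and 186 in mutants, with mutant 2 the highest. Id1, a target of iron-sensing BMP signals, was 22.1, 9.54, 10.4 and 21.3 in controls and 30.7, 23.8, 27.4 and 27.1 in mutants. Hamp, for the iron hormone hepcidin, was 7965, 5117, 6252 and 7012 in controls and 13366, 8181, 8234 and 7239 in mutants (log2 fold change 0.47, adjusted p = 0.804, limma; 0.25 without mutants 1 and 2). The list's median was 0.39, or 0.25 without mutants 1 and 2.

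The promoters of this pair are printed because their shared element is known. Capitals mark the cores of the metal response element, TGCACNC and TGCGCNC, on either strand; the 2 do not overlap each other here. The windows run from 250 bases before to 50 after the RefSeq start on GRCm38.p6.
Mt1 (chr8:94178839-94179138, plus strand): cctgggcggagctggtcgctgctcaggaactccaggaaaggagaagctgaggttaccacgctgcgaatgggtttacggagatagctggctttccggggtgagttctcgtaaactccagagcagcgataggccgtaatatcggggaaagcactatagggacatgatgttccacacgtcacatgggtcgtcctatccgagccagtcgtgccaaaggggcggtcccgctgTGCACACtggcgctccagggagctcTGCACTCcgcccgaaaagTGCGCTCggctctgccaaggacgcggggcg
Mt2 (chr8:94172368-94172667, plus strand): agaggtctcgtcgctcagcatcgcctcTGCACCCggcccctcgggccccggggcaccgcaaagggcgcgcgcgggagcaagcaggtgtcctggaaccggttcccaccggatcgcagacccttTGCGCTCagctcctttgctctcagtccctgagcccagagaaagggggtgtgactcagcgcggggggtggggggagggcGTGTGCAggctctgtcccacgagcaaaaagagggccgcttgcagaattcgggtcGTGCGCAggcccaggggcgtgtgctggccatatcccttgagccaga

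Mt1 held 3 cores and Mt2 held 4. Of all 32851 promoters of this length 25.7% held at least 1 core, 1.97% at least 3 and 0.517% at least 4.

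For fatty acid oxidation genes and for P450s of drug metabolism, list means of log2 values in mutants 1 and 2 lay below those of all controls, and mutants 3 and 4 lay within the control range. Of 39 genes of fatty acid oxidation and targets of PPARα, 33 had a log2 fold change below 0, none separated the groups, and the median of -0.23 became 0.09 without mutants 1 and 2. Over all tested genes 54.6% had a log2 fold change above 0. Cyp4a14, a fatty acid omega-hydroxylase, was 608, 341.96, 431 and 208 in controls and 5.97, 1.61, 299 and 280.4 in mutants. All other livers lay more than an order of magnitude above mutants 1 and 2 (log2 fold change -3.40, adjusted p = 0.729, limma; -0.35 without them). Ucp2, a mitochondrial carrier also abundant in macrophages, ran the other way at 26.2, 34.5, 34 and 53.4 in controls and 124, 167, 58.1 and 50.8 in mutants. Of 29 P450s of drug metabolism outside the sex-biased lists, 23 had a log2 fold change below 0 (median -0.13, and 0.10 without mutants 1 and 2). Cyp2c50 was 278, 338.4, 385 and 329 in controls and 107, 79.8, 231.99 and 310.3 in mutants. Cyp2c54 was 185, 208, 250.4 and 244 in controls and 42.9, 52.3, 189 and 179.7 in mutants. The lowest mutants were again 1 and 2. Mup3, of the male-biased list, was 1945, 1138, 965 and 1282 in controls and 199, 192, 1265 and 665 in mutants. None of these genes passed the threshold. These 2 livers were also those with the most granulocyte and acute-phase RNA, and the part of that RNA in these differences was not tested.

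Genes of other lists differed singly. Il1rap, the shared chain of the interleukin-1 receptor, was 128, 106, 106 and 109 in controls and 44.8, 57, 80.1 and 95.1 in mutants, lower in every mutant (log2 fold change -0.74, adjusted p = 0.548, limma; -0.35 without mutants 1 and 2). Pnpla3, a lipase of lipid droplets, was 1.81, 1.52, 1.7 and 2.06 in controls and 5.68, 3.64, 7.87 and 4.34 in mutants, with mutant 3 highest (log2 fold change 1.16, adjusted p = 0.804, limma). Apolipoprotein A-IV, Apoa4, was 1143, 810.2, 774 and 792 in controls and 1649, 916, 1726 and 1404 in mutants. Mutant 2 lay inside the control range, and the other mutants lay above it (log2 fold change 0.67, adjusted p = 0.677, limma). Igfbp2, which binds insulin-like growth factors and is secreted by liver, was 806, 424, 831 and 498 in controls and 364, 291, 399 and 657 in mutants, with overlap (log2 fold change -0.58, adjusted p = 0.804, limma; -0.26 without mutants 1 and 2).

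None of the remaining lists had more than 2 members whose groups did not overlap in 1 direction. Over the 35 tested genes of secreted liver proteins that act on bone or metabolism, the median log2 fold change was 0.05 and no member separated the groups. The medians were 0.00 for interferon response, 0.21 for MHC class II presentation, 0.49 for cytokine receptors and STAT3 feedback, and 0.23 for immediate early genes. They were 0.21 for cholesterol synthesis, -0.06 for lipogenesis, -0.12 for lipid droplets, -0.14 for bile acid synthesis, -0.04 for gluconeogenesis, -0.07 for glutathione transferases, -0.14 for the urea cycle and 0.00 for apolipoproteins. Nuclear receptors had a median of -0.03, the growth hormone axis 0.15, circadian genes -0.10 and ER folding and heat shock genes 0.01. Central and portal zonation genes had medians of 0.02 and -0.06. Among cell type markers, medians were 0.05 for hepatocytes, 0.06 for negative acute-phase proteins, 0.14 for sinusoidal endothelium, 0.18 for stellate cells, 0.00 for bile duct and 0.29 for red cells. Several of these medians moved without mutants 1 and 2. They were then 0.34 for lipogenesis, 0.26 for circadian genes, -0.33 for MHC class II presentation and -0.215 for ER folding and heat shock genes. Lipid droplets and bile acid synthesis turned to 0.08 and 0.06. Cytokine receptors with STAT3 feedback fell to 0.13 and immediate early genes to 0.02. Stellate cells fell to -0.04 and red cells rose to 0.53. None of the genes in these lists passed the threshold.

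**Figure D4:**
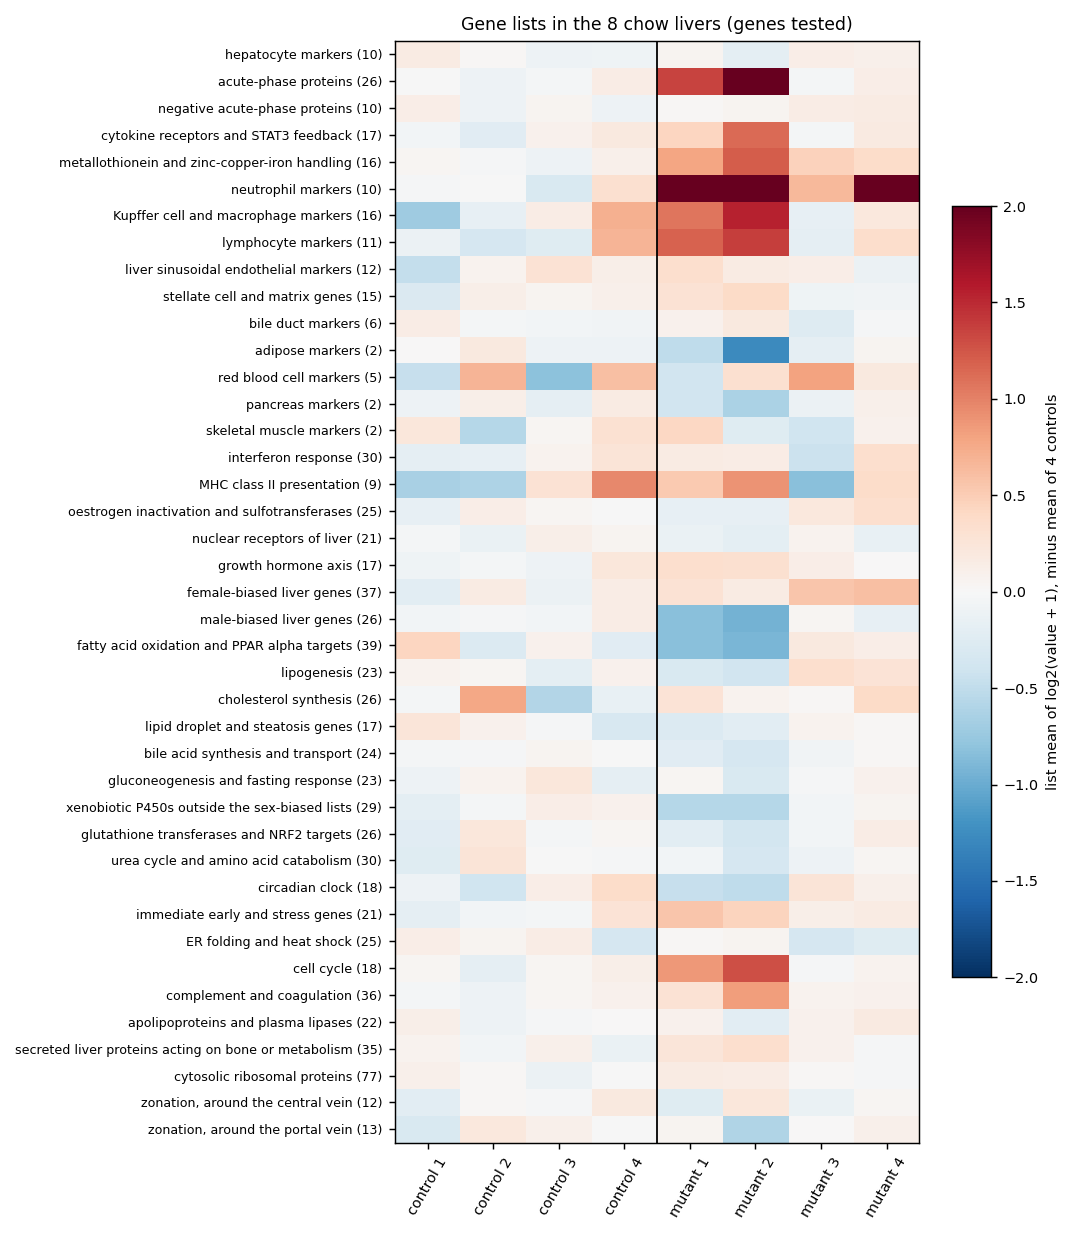
Mean of log2(value + 1) over the tested genes of each list, minus the mean of the 4 controls, in each of the 8 chow livers; numbers in brackets are genes tested and the colour scale ends at 2 in either direction. In it mutants 1 and 2 are red for acute-phase, neutrophil, macrophage, lymphocyte and cell cycle genes and blue for male-biased, fatty acid oxidation and drug-metabolism genes, whereas female-biased genes are highest in mutants 3 and 4 (0.56 and 0.61), and mutant 2 (0.168) lies just under control 2 (0.171).

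The 63 separated genes differed in how much of their fold change was left without mutants 1 and 2. S100a8 moved from 6.09 to 2.81, Camp from 4.62 to 1.95, and Mt2 from 4.31 to 2.61 on the log2 scale. Rps7 moved from 3.15 to 3.03, Gm7086 from 7.39 to 6.89, Cyp17a1 from 2.64 to 2.51 and Cyp2c69 from 1.82 to 1.96.

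**Figure D5:**
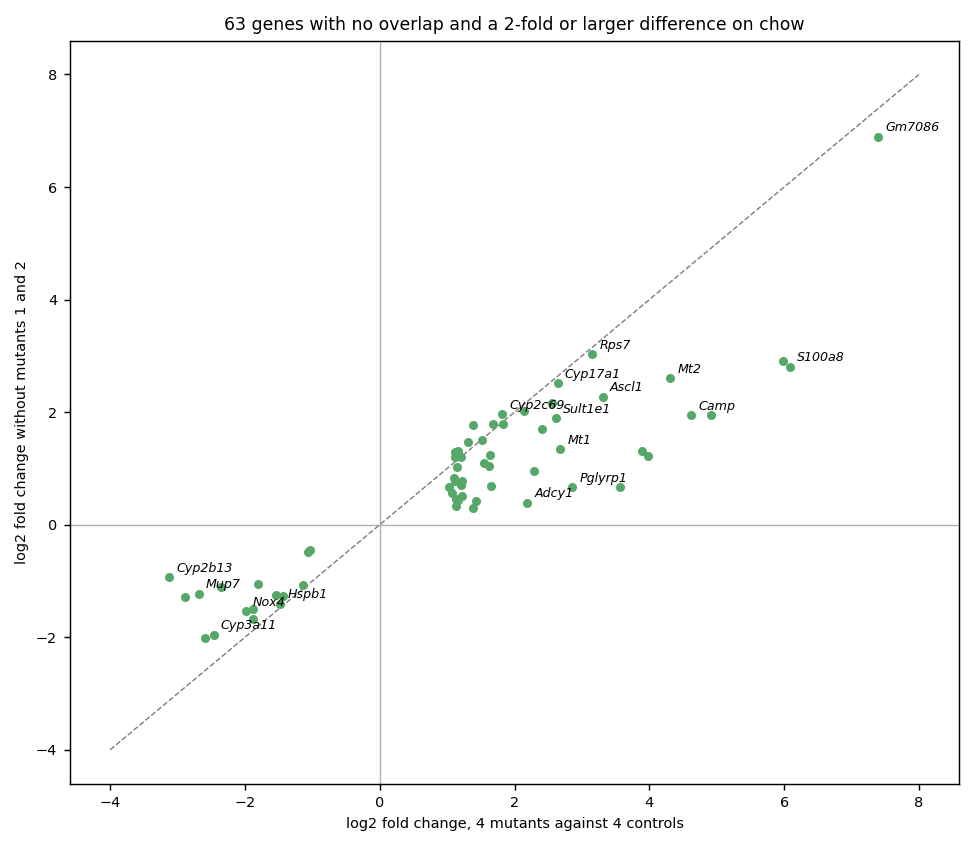
Log2 fold change of mutants against controls on chow with all 4 mutants (horizontal) and without mutants 1 and 2 (vertical) for the 63 genes whose groups do not overlap and differ at least 2-fold; the dashed line marks equality. Neutrophil genes such as S100a8 and Camp lie well below the line, and Rps7, Gm7086, Cyp17a1 and Cyp2c69 lie close to it.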

How the data were processed

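Liver RNA of 16 mice was sequenced from NEBNext Ultra II libraries, and 8 mice on chow entered the comparison. According to the methods and the submitters' processing notes, the authors quantified reads with kallisto against mm10 and analysed them with sleuth in gene mode; versions, the transcript annotation and any filter are not given in the sources used here. The deposited signal values are fractional, with column totals near that of TPM but unequal, from which a TPM scale after size factors was inferred, since no source used here states it; their depth is unknown and no counting interval can be given; precision comes from the spread between 4 mice, and no other per-sample column was found. The labels give groups but no replicate numbers, so mice are numbered in accession order.

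Genes with a value of at least 1 in at least 4 of 16 libraries were tested with limma 3.58.1 in R 4.3.3 on log2(value + 1), with a variance trend, 4 group means and Benjamini-Hochberg adjustment. A fold change on that scale understates the change of low genes. The likelihood-ratio test of sleuth was not run, since it needs resampled transcript estimates. Scripts were tested on simulated data with known changes. Single values were compared by exact two-sided permutation.

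Named genes are Esr1 and Fst, all genes past the threshold, the 12 higher and 12 lower genes of smallest p with no overlap and at least a 2-fold difference, and in each list up to 4 tested members of smallest p and the most abundant; all acute-phase, neutrophil and oestrogen inactivation genes could be named. Members and lists were chosen with earlier results of these data known. Alternatives varied the libraries, pseudocount, filter, scaling, library weights, a term for the run of title numbers, and each library in turn; leaving out mutants 1 and 2 together was added after seeing the data. GENCODE M21 on GRCm38 gave positions for 15536 of 15544 genes and the transcripts compared for identity; RefSeq gave promoters on GRCm38.p6.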

Additional observations from a re-analysis of the deposited data

Results flagged for a closer look

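Within a group of 4 livers, 11 of 172 tests found a highest or lowest mouse far from the other 3, by a gap above Dixon's critical share of the group's range on the log2 scale. Chance gives about 1 in 20. Mutant 2 accounted for 3 of the 4 in mutants. Its Cyp3a41a was 2528 against 1121 to 1226 in the other mutants, its Cyp3a44 was 440.9 against 74.1 to 85.0, and its Slc39a14 was 330.1 against 179.7 to 185.7. The fourth was Gm46415, at 0.791 in mutant 4 and listed at 0 in the others.

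Among controls, S100a8 was 0.726 in control 3 against 1.82 to 2.05, and Camp was 0.406 in control 1 against 0.104 to 0.144. Gadd45g was 9.17 in control 2 against 4.37 to 4.82, and Mup7 was 57.3 in control 4 against 18.3 to 19.9. Cfi was 354.6 in control 2 against 418.3 to 432.7. Il1rap was 127.7 in control 1 against 105.9 to 108.9, and Apoa4 was 1143.3 in control 1 against 773.7 to 810.2. None of these 7 values brought a control into the range of the mutants, except that of Apoa4, which lay above mutant 2.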

How the results depend on the processing

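The number of genes past the threshold was 3 as reported, 1 with a filter at 5, 6 with library weights and 6 in the chow libraries alone. It was 1 with the run of title numbers as a term, and 1 to 14 when single libraries were left out. At the filter of 5, Sult1e1 and Crybg2 were too low to be tested. The count was 1 without control 1, 2 or 4 or mutant 1, 2 without control 3, 3 without mutant 2, 14 without mutant 3 and 5 without mutant 4. Rps7 passed in every alternative; within the runs of title numbers it differed by 3.17 and 3.10. Signs turned for 5 named genes that missed the threshold. Esr1 was -0.31 without mutants 1 and 2, -0.015 with library weights and -0.024 to 0.374 when single libraries were left out, below 0 without control 3 or mutant 1. Fst was 0.25 with the title-run term and -0.41 to 0.32 when single libraries were left out, above 0 without control 2, mutant 3 or mutant 4. Without mutants 1 and 2, Sult2a8 was 0.071, Saa1 -0.54 and Saa2 -0.70. The cause was not tested. Over all named genes, 1345 of 1393 alternative values kept their direction and their side of the threshold, and 714 of 730 list medians moved by less than the spread between mice. Of the 83 named genes only 3 passed in the main fit, so for most of them staying short of the threshold shows little. Of those 3, Sult1e1 and Crybg2 missed it in several alternatives. No paired analysis was possible because the labels give no replicate numbers.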

Other observations

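Lists chosen after values were seen describe the blood cells further. Of 11 granule genes of immature neutrophils, 8 were tested; 6 of these were below 1 in all 8 controls on chow or HFD and so entered the test only through mutants. Groups did not overlap for Camp, Ngp, Chil3 and Ltf, and, as a description of genes chosen in this way, the median was 3.93, or 1.10 without mutants 1 and 2. Of 12 genes of blood progenitors and erythroblasts, 9 were tested with a median of 0.30, 6 with a log2 fold change above 0 and 3 below. Pf4 was higher in every mutant, against 1.95% of all tested genes, and Gata2 was lower in every mutant, against 1.09%.

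Chromosomes differed in how many genes had groups without overlap. Over all tested genes 1.95% were higher and 1.09% lower in every mutant, and the shares given here count both directions together. The share was 5.59% of 447 tested genes on chromosome 12, which holds Rps7, Zfp125 and Rrm2, 4.8% of 396 on chromosome 16 and 4.53% of 464 on chromosome 13. The lowest was 2.1% of 998 on chromosome 7. These shares are a description with no test.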
